A study of Mus musculus with 12 samples.

Results

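The genes described here are those whose symbols begin with St3gal, St6gal, St8sia, Fut, B3galt, B4galt, B3gnt, Gcnt or Galnt, the families of enzymes that add sialic acid, fucose, galactose, N-acetylglucosamine and N-acetylgalactosamine to growing sugar chains. RNA of whole embryonic mouse lungs at stage E14.5 (E, embryonic day) was measured on Affymetrix arrays. Of 22180 genes with a probe set annotated to exactly 1 symbol, 73 were members, and each was read from the probe set that was brightest on average across the 12 arrays. The families held 6 St3gal, 8 St6gal (St6gal and St6galnac symbols), 6 St8sia, 9 Fut, 5 B3galt, 7 B4galt, 8 B3gnt, 5 Gcnt and 19 Galnt genes. The Fut genes included Fut4-ps1, annotated as a transcribed pseudogene.

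There were 3 genotypes with 4 specimens each. Controls were Shh+/Cre, the Yy1 mutants were Shh+/Cre;Yy1flox/flox and the Dicer mutants were Shh+/Cre;Dicerflox/flox. All groups, controls included, thus carried Cre at the Shh locus and only a single intact Shh allele. Cre at this locus is active in the epithelium of the embryonic lung, whereas the RNA came from the whole organ, which also holds mesenchyme, smooth muscle, vessels and blood cells. The labels do not say whether specimens came from different litters or were pools of several lungs, so the p-values measure only the spread between these specimens. The number of arrays limits the precision.

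Glycosyltransferases sit mostly in the Golgi and build the glycans of glycoproteins and glycolipids. Galnt enzymes start mucin-type O-glycans by placing N-acetylgalactosamine on serine or threonine, Gcnt enzymes add branches, and B3gnt, B4galt and B3galt enzymes lengthen the chains. Sialyltransferases and fucosyltransferases commonly act last, and the terminal sugars they add are read by lectins such as siglecs and selectins. In embryonic tissue the family is best known for polysialic acid, a long polymer that St8sia2 and St8sia4 build on the neural cell adhesion molecule. Yy1 is a zinc finger transcription factor, and Dicer1 cuts microRNA precursors.

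Values are log2 expression as deposited. Differences are between group means on that scale, errors of group means are SDs over 4 arrays, and a gene is called where limma's p-value, adjusted by Benjamini-Hochberg over all 22180 genes, is under 0.05. Array medians lay between 5.99 and 6.08, and arrays correlated with each other at 0.978 to 0.991. Yy1 itself read 9.01, 9.14, 8.98 and 9.01 in controls and 8.87, 8.70, 8.85 and 8.95 in Yy1 mutants, a difference of -0.19 (adjusted p = 0.125). Dicer1 fell by 0.61 in Dicer mutants (adjusted p = 0.00127). The sources used here do not say whether either probe set lies within the deleted exons, so neither is a full check of the labels. Lung epithelial genes were present in every group. Nkx2-1, a transcription factor of lung epithelium, ranged from 9.17 to 9.46 in controls, 8.15 to 8.66 in Yy1 mutants and 8.62 to 9.06 in Dicer mutants.

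The mix of cell-type markers differed between genotypes, and in whole lung fewer cells of a type and less RNA per cell cannot be told apart. Of 12 epithelial markers, 10 were called lower in Yy1 mutants and 9 in the Dicer mutants, beside 3.84% and 3.97% of all genes. Their mean level ran from 8.96 to 9.21 in controls, 8.11 to 8.44 in Yy1 mutants and 8.38 to 8.65 in Dicer mutants. All 12 lay below control in Yy1 mutants, the highest difference being -0.03. In Dicer mutants Sox9 (0.22) and Epcam (0.11) lay above control, and neither was called. Of 8 smooth muscle markers, 6 and 7 were called lower, beside the same 3.84% and 3.97% of all genes. Mean levels were 9.01 to 9.25, 7.62 to 8.13 and 7.65 to 8.26. All 8 lay below control in both mutants, the highest differences being -0.19 and -0.18. Of 10 mesenchymal markers, 7 and 6 were called higher, beside 2.77% and 4.78% of all genes. Mean levels were 9.70 to 9.81, 10.16 to 10.32 and 10.07 to 10.26. The same shares of all genes called higher, 2.77% and 4.78%, stand beside the macrophage, endothelial and mesothelial counts that follow. Of 10 macrophage markers, 7 and 8 were called higher (6.86 to 6.97, 7.27 to 7.46 and 7.41 to 7.60). All 10 lay above control in both mutants, the lowest differences being 0.16 and 0.23. Of 8 endothelial markers, 1 and 7 were called higher (9.20 to 9.50, 9.29 to 9.54 and 9.72 to 9.81). Their differences ran from -0.15 to 0.29 in Yy1 mutants and from 0.28 to 0.48 in Dicer mutants. Of 5 mesothelial markers, 1 and 2 were called higher, with mean levels of 7.23 to 7.37, 7.38 to 7.44 and 7.45 to 7.57. Only 2 of 7 erythroid markers were measured, and the red cell anion exchanger Slc4a1 was higher by 1.02 in Dicer mutants, with mean levels of both of 7.16 to 7.39, 7.22 to 7.37 and 7.77 to 8.09. Of 7 markers of stomach, oesophagus and thymus, Cym was lower in both mutants, at -2.76 and -3.47, and Pgc was higher by 0.56 in Dicer mutants, with mean levels of 6.72 to 6.84, 6.19 to 6.47 and 6.16 to 6.43. The part of these shifts in the results on the glycosyltransferases was not tested.

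Arrays of Yy1 mutants 2 and 3 and Dicer mutant 4 stood apart in the Y-linked gene Eif2s3y, at 7.99, 5.92 and 7.84 against 3.73 to 4.48 in controls. Xist, transcribed from the inactive X chromosome, read 8.55, 11.11 and 9.64 on these arrays and 11.15 to 11.31 in controls. Calls lost without these 3 arrays are named as such beside their values. The set without them keeps 2 Yy1 mutants and 3 Dicer mutants.

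The upstream sequences of the St8sia members with the largest rise and the largest fall are shown because these genes of the same family moved in opposite directions in both mutants. Each covers 250 bases upstream of the RefSeq start (GRCm38.p6), written 5′ to 3′ on the gene's strand, with CG pairs in capitals. St8sia6 lies on the minus strand at chr2:13793521-13793770 and St8sia2 on the minus strand at chr7:74013683-74013932.
St8sia6: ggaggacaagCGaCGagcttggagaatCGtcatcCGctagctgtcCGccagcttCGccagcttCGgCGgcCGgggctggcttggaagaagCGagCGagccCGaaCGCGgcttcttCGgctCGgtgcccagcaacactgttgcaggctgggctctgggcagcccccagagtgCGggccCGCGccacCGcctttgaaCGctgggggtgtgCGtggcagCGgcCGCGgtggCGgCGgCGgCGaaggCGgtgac
St8sia2: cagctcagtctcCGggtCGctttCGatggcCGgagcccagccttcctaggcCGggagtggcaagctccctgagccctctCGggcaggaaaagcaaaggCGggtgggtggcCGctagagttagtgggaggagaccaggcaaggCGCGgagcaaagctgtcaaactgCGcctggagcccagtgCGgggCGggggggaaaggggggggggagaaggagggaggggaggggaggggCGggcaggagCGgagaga
The St8sia6 window held 30 CG pairs and the St8sia2 window 15, against a median of 14 over 73 windows of the members and 6 over all 32851 windows in the RefSeq table. Neither carried the Yy1 core motif CCATNTT on either strand in the 300 bases from 250 before to 50 after the start. In the same 300 bases the GC box GGGCGG, read on either strand, occurred 1 time for St8sia6, not within the 250 bases shown, and 2 times for St8sia2.

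St8sia6, which adds alpha-2,8-linked sialic acid mainly to O-glycans, showed the largest difference of any member in both mutants. It read 6.69, 6.55, 6.83 and 6.57 in controls, 8.21, 8.45, 8.45 and 8.40 in Yy1 mutants, and 8.68, 8.72, 8.30 and 8.92 in the Dicer mutants. Every mutant array lay above every control array, and the mutant groups overlapped each other. The difference from control was 1.72 in Yy1 mutants (SE 0.116, adjusted p = 1.72e-06), a 3.28-fold rise. In Dicer mutants it was 1.99 (SE 0.116, adjusted p = 4.63e-07), a 3.98-fold rise. Both calls held in all 21 alternatives, with differences of 1.64 to 1.77 and 1.90 to 2.11. Yy1 mutants lay 0.28 below Dicer mutants, a difference of -0.28 with a 95% interval from -0.53 to -0.03 that was not called (adjusted p = 0.225). Without Dicer mutant 3 it was -0.40 and called (adjusted p = 0.0411).

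St8sia2, a polysialic acid synthase of embryonic tissue, fell. It read 8.43, 8.18, 8.17 and 8.33 in controls, 8.07, 7.82, 7.92 and 7.98 in Yy1 mutants, and 7.54, 7.69, 7.80 and 7.67 in the Dicer mutants. The 3 groups did not overlap, with controls highest and Dicer mutants lowest. It fell by 0.60 in Dicer mutants (SE 0.083, adjusted p = 0.000532), a 1.52-fold fall that was called in all 21 alternatives. In Yy1 mutants it fell by 0.33 (SE 0.083, adjusted p = 0.0294), or 1.26-fold. That call failed on leaving out single arrays, with adjusted p of 0.0756 (Yy1 mutant 2), 0.079 (Yy1 mutant 3), 0.0571 (Yy1 mutant 4), 0.089 (control 1) and 0.0679 (control 4), and without the 3 arrays with raised Eif2s3y, where the difference was -0.25 (adjusted p = 0.302). The call in Yy1 mutants also failed in a fit of the groups compared only (0.056) and with the replicate number as a block (0.0544). The mutants differed by 0.27, with a 95% interval of 0.09 to 0.45, which was not called (adjusted p = 0.0886). That difference passed the threshold in 4 of 21 alternatives.

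St8sia4, the other polysialic acid synthase, was not called. Its level was 8.19 ± 0.0781 in controls, 8.39 ± 0.159 in Yy1 mutants and 8.45 ± 0.1 in the Dicer mutants, with differences of 0.20 (adjusted p = 0.211) and 0.26 (adjusted p = 0.0796). Ncam1, the main carrier of polysialic acid, rose from 8.38 ± 0.0319 in controls to 8.97 ± 0.06 in Yy1 mutants and 9.13 ± 0.136 in the Dicer mutants. The differences were 0.59 (adjusted p = 0.000209) and 0.76 (adjusted p = 2.58e-05), both called in all 21 alternatives. Of 6 neural markers none was called by limma in either mutant (0 and 2 at an unadjusted p under 0.05). Their mean level ran from 6.04 to 6.12 in controls, 5.91 to 6.21 in Yy1 mutants and 5.79 to 6.12 in the Dicer mutants. Of 10 mesenchymal markers 7 and 6 were called higher, beside 2.77% and 4.78% of all genes. The part of either cell type in the rise of Ncam1 was not tested. Nrp2, which can also carry polysialic acid, rose by 0.43 (adjusted p = 0.00947) and 0.45 (adjusted p = 0.00615). Without the 3 arrays with raised Eif2s3y these Nrp2 differences were 0.41 and 0.40 and were not called (adjusted p = 0.0992 and 0.0516).

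St8sia1 makes the ganglioside GD3. It read 4.75, 4.91, 4.95 and 5.24 in controls, 5.56, 5.37, 5.23 and 5.79 in Yy1 mutants, and 5.10, 5.12, 5.22 and 4.91 in the Dicer mutants. Yy1 mutants were higher, but Yy1 mutant 3 lay just below control 4. The rise in Yy1 mutants was 0.53 (SE 0.126, adjusted p = 0.0222), while the difference in Dicer mutants was 0.13 (adjusted p = 0.602). The difference between the mutants, 0.40, was not called (adjusted p = 0.1). The call in Yy1 mutants failed on leaving out single arrays, with adjusted p of 0.0656 (Yy1 mutant 1), 0.0632 (Yy1 mutant 4), 0.0732 (control 1), 0.0527 (control 2) and 0.0528 (control 3). St8sia1 is also among the 13 members at or below 5.48, the 30th percentile of mean level over all genes, the dimmest part of the table.

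Among the remaining St8sia genes, which act largely on gangliosides and in the nervous system, St8sia3 differed by -0.21 in Yy1 mutants (adjusted p = 0.549) and -0.19 in Dicer mutants (adjusted p = 0.557). St8sia5 differed by 0.04 (adjusted p = 0.841) and -0.08 (adjusted p = 0.628). Thus 3 of 6 St8sia members were called in Yy1 mutants, with 2 higher and 1 lower, and 2 of 6 in Dicer mutants, with 1 in each direction. Over all genes 6.61% were called in Yy1 mutants and 8.75% in Dicer mutants.

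**Figure D1:**
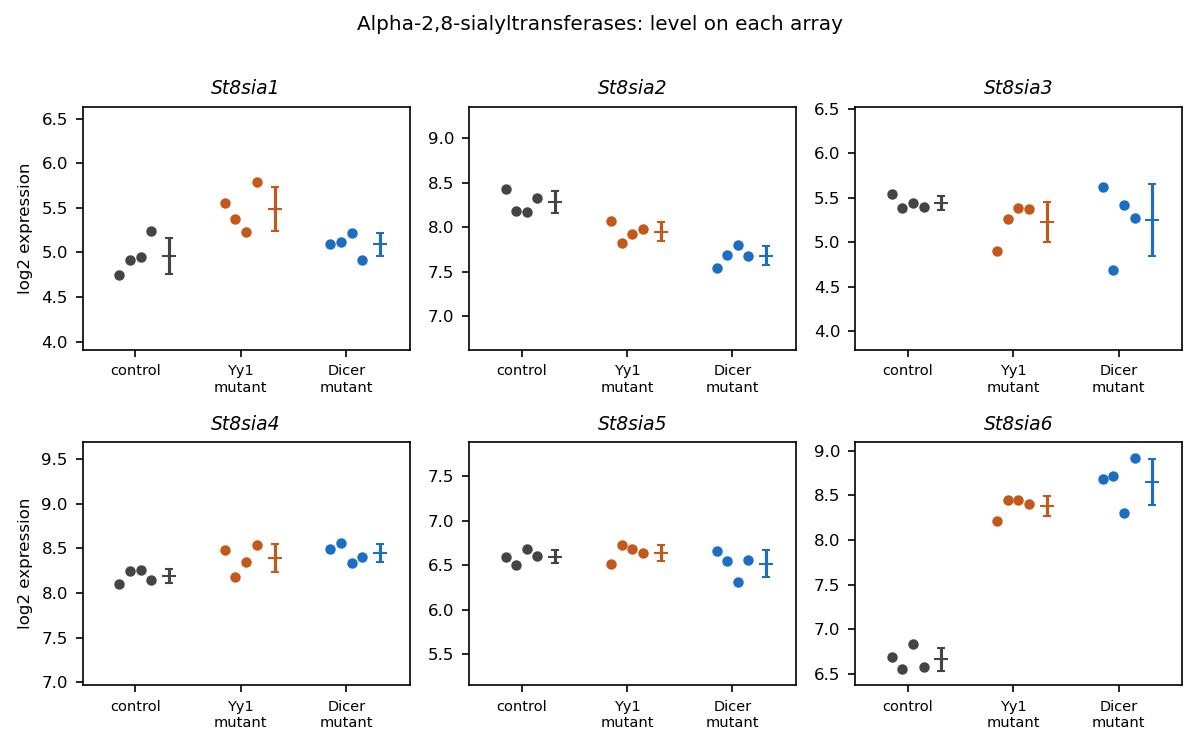
Log2 expression of the 6 St8sia genes on each of the 12 arrays, by genotype. Dots are arrays and bars show the mean ± SD of 4 arrays. St8sia6 is higher on every mutant array than on any control array, and St8sia2 is lower.

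Over all 73 members, 7 were called in Yy1 mutants against control, 9.59% of the members, while 6.61% of all genes were called. Of these 5 were higher and 2 lower, where 2.77% and 3.84% of all genes were called higher and lower. The counts changed by more than 1.5 times without control 1 (4 called), control 4 (4), Yy1 mutant 1 (4) or Yy1 mutant 4 (3), and without the 3 arrays with raised Eif2s3y, where St8sia6, St8sia1 and Galnt18 were the 3 members called. The median difference of the members was 0.03 (0.00 over all genes), and 76.7% of members differed by less than 0.2, against 79.8% of all genes. In Dicer mutants 11 members were called, 15.1% beside 8.75% of all genes. Of these 9 were higher and 2 lower, where 4.78% and 3.97% of all genes were called in each direction. Without the 3 arrays 5 remained by count, namely St8sia6, St8sia2, B3gnt5, B3gnt9 and Galnt6. The median difference was 0.04 (-0.03 over all genes), and 72.6% of members differed by less than 0.2, against 76.8% of all genes.

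Between the mutants, 6 members were called, 8.22% beside 4.96% of all genes. Yy1 mutants were higher in 1 of them and lower in 5, where 1.57% and 3.39% of all genes were called. Without Yy1 mutant 3 or Dicer mutant 4 the count was 3, and without the 3 arrays with raised Eif2s3y only Galnt18 was called. In total 15 members were called in at least 1 comparison and 58 in none. St8sia6, St8sia2, B3gnt9 and Galnt6 were called in both mutants, which were compared with the same control arrays.

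**Figure D2:**
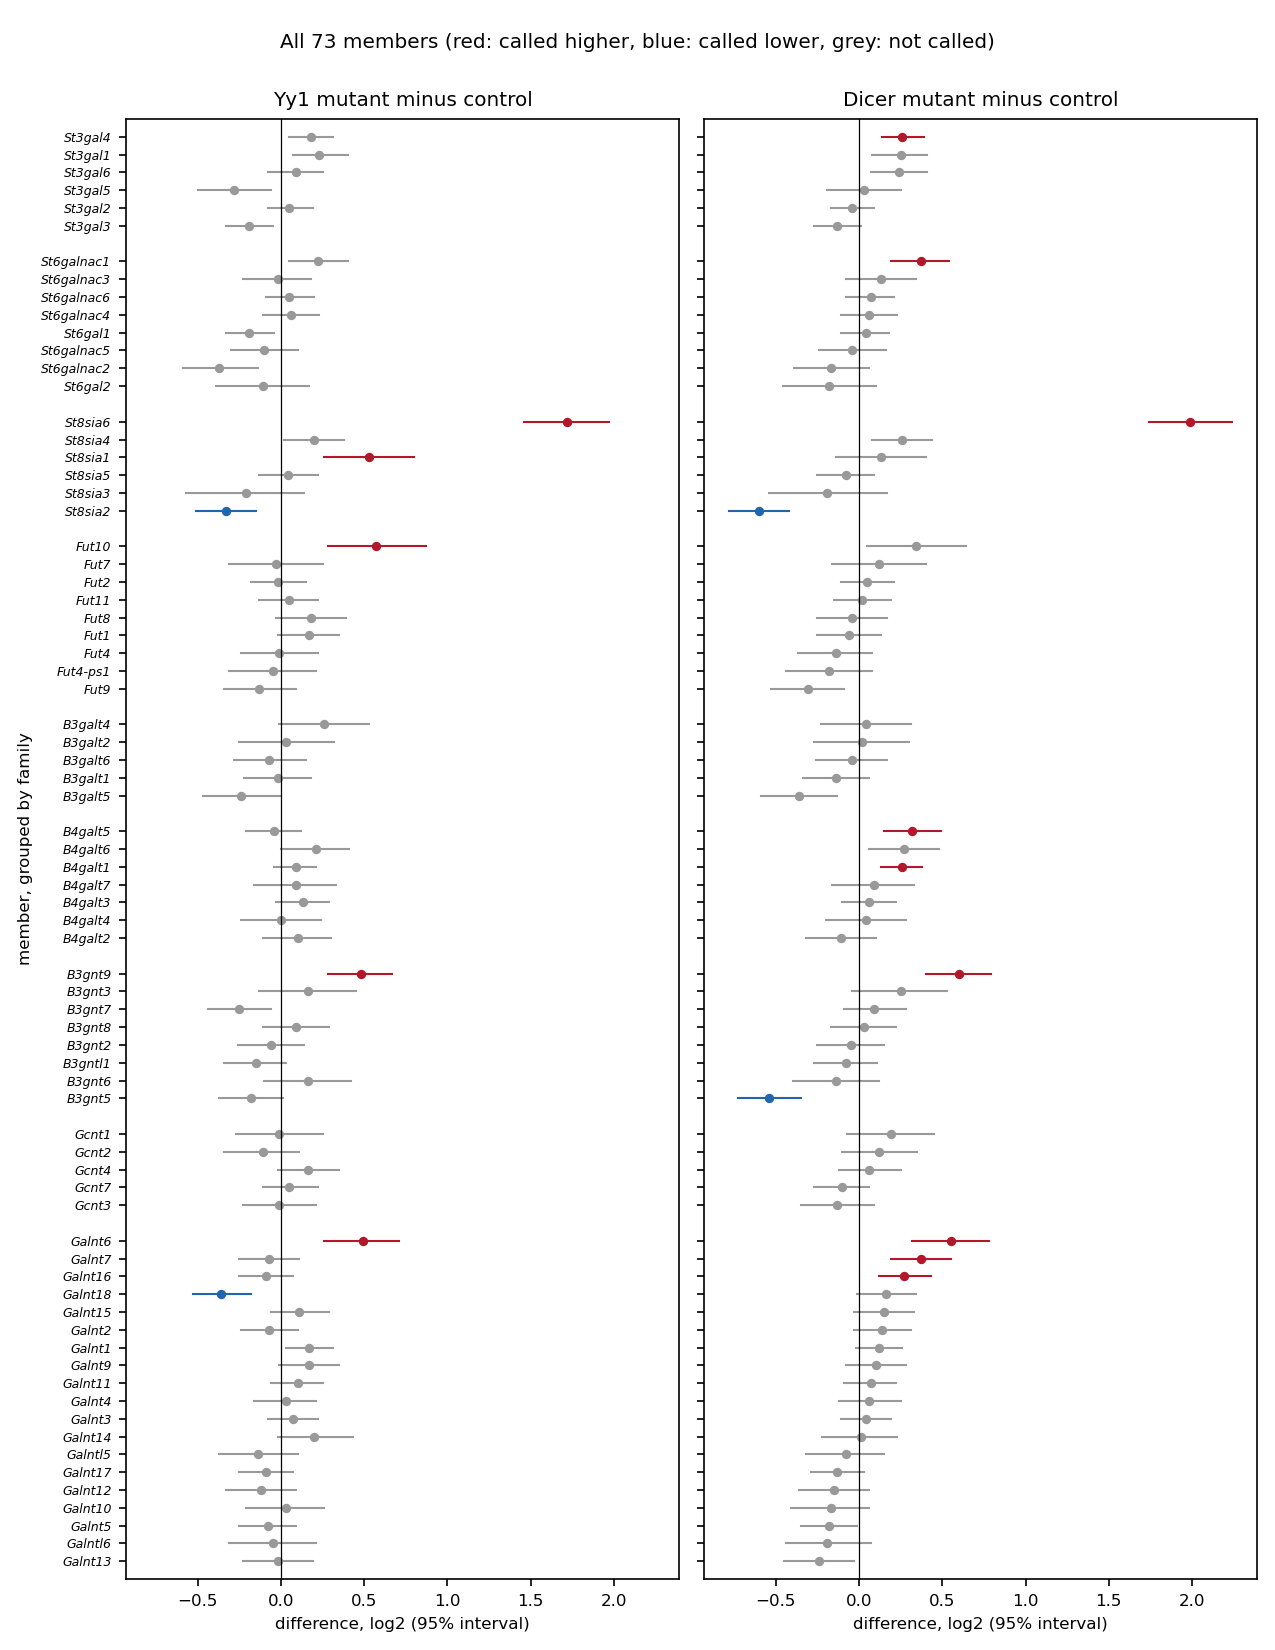
Difference from control on the log2 scale for all 73 members, grouped by family, in Yy1 mutants and in Dicer mutants. Lines are 95% intervals from limma, and colour marks members called higher, called lower or not called. Most members lie close to 0, and St8sia6 is far to the right in both panels, at 1.72 and 1.99.

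Sialyltransferases of the St3gal family cap galactose with alpha-2,3-linked sialic acid. St3gal4, which acts on N-acetyllactosamine chains and contributes to selectin ligands, was the called member. It read 7.65, 7.60, 7.51 and 7.56 in controls, 7.82, 7.78, 7.75 and 7.69 in Yy1 mutants, and 7.81, 7.89, 7.79 and 7.89 in the Dicer mutants. It rose by 0.26 in Dicer mutants (SE 0.0597, adjusted p = 0.0136), a call that failed on leaving out a single array, with an adjusted p of 0.0511 (Dicer mutant 4) and without the 3 arrays with raised Eif2s3y (0.0929). In Yy1 mutants no array overlapped the controls, but the difference of 0.18 was not called (adjusted p = 0.102). It passed the threshold in 2 of 21 alternatives. St3gal1, which sialylates core 1 O-glycans, was 8.67 ± 0.0396, 8.90 ± 0.12 and 8.91 ± 0.115, with differences of 0.23 (adjusted p = 0.0937) and 0.25 (adjusted p = 0.0659). These St3gal1 differences passed the threshold in 1 and 5 of 21 alternatives. The other 4 members, among them the GM3 synthase St3gal5, were not called in either mutant. The family's median difference was 0.07 in Yy1 mutants and 0.14 in the Dicer mutants.

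The St6gal and St6galnac genes place alpha-2,6-linked sialic acid on galactose or N-acetylgalactosamine. St6galnac1, the sialyl-Tn synthase, rose by 0.37 in Dicer mutants, from 4.85 ± 0.152 to 5.22 ± 0.0844 (SE 0.081, adjusted p = 0.0118). Its level in Yy1 mutants was 5.07 ± 0.0759, 0.22 above control (adjusted p = 0.135). The gene is among the 13 dimmest members, and without the 3 arrays with raised Eif2s3y the rise was 0.39 (adjusted p = 0.0513). St6galnac2, its neighbour in the RefSeq gene order, sialylates O-glycans too. It read 6.78, 6.80, 6.82 and 6.71 in controls, 6.29, 6.45, 6.51 and 6.39 in Yy1 mutants, and 6.43, 6.85, 6.79 and 6.36 in the Dicer mutants. Every Yy1 mutant array was below every control array, yet the difference of -0.37 narrowly missed the threshold (SE 0.104, adjusted p = 0.0514) and passed it in 10 of 21 alternatives. The Dicer mutants split, with arrays 2 and 3 near control and arrays 1 and 4 near the Yy1 mutants. St6gal1, which makes the ligand of the siglec CD22, was 8.43 ± 0.0679, 8.24 ± 0.0416 and 8.46 ± 0.111 and was not called.

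Fucosyltransferases were mostly close to control. Fut10 was the called member and read 6.62, 6.84, 6.56 and 6.54 in controls, 7.37, 7.08, 7.15 and 7.25 in Yy1 mutants, and 6.92, 7.41, 6.61 and 6.99 in the Dicer mutants. All Yy1 mutants were above all controls, whereas the Dicer mutants spread from control level to the highest value of the gene. It rose by 0.57 in Yy1 mutants (SE 0.136, adjusted p = 0.0215), or 1.49-fold. The call failed on leaving out single arrays, with adjusted p of 0.0704 (Yy1 mutant 1), 0.0571 (Yy1 mutant 4), 0.0559 (control 1), 0.0592 (control 3) and 0.0563 (control 4), and without the 3 arrays with raised Eif2s3y (difference 0.67, adjusted p = 0.0949). In Dicer mutants the difference was 0.34 (adjusted p = 0.149), and without Dicer mutant 3 it was 0.47 and called (adjusted p = 0.0392). Fut9, which makes the Lewis x epitope, was 5.55 ± 0.199, 5.42 ± 0.133 and 5.24 ± 0.0998, with a difference of -0.31 in Dicer mutants (adjusted p = 0.0775). The Fut9 difference passed the threshold in 2 of the 20 alternatives that kept the gene. Fut8, the core fucosyltransferase of N-glycans, was 8.96 ± 0.157, 9.14 ± 0.188 and 8.92 ± 0.0577 and was not called. The family's medians were -0.01 and -0.04.

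The B4galt enzymes add beta-1,4-linked galactose. B4galt1, the main enzyme for galactose on N-glycans, read 10.33, 10.18, 10.26 and 10.24 in controls, 10.41, 10.28, 10.34 and 10.34 in Yy1 mutants, and 10.48, 10.53, 10.53 and 10.49 in the Dicer mutants. The Dicer mutants lay above both other groups, and the rise over control was 0.26 (SE 0.0582, adjusted p = 0.0143). B4galt5, a lactosylceramide synthase that opens the route to most complex glycolipids, read 8.95, 9.0, 8.91 and 8.86 in controls, 8.93, 9.07, 8.84 and 8.70 in Yy1 mutants, and 9.31, 9.17, 9.22 and 9.30 in the Dicer mutants. Yy1 mutants overlapped controls and Dicer mutants lay above both. B4galt5 rose by 0.32 in Dicer mutants (SE 0.0778, adjusted p = 0.0203), and Yy1 mutants were lower than Dicer mutants by -0.36 (adjusted p = 0.0145). The call of the rise failed on leaving out single arrays, with adjusted p of 0.0502 (Dicer mutant 1), 0.0646 (Dicer mutant 4), 0.0537 (control 3) and 0.054 (control 4), and the call between mutants was lost on leaving out Yy1 mutant 3 (0.05) or Dicer mutant 4 (0.0518). Without the 3 arrays with raised Eif2s3y the rises of both genes missed the threshold (adjusted p = 0.0668 for each), and so did the difference between mutants for B4galt5 (0.0628). No B4galt member was called by limma in Yy1 mutants against control, where 0 of 7 had an unadjusted p under 0.05, and the family's median was 0.09 in both mutants.

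No member of the B3galt family, which adds beta-1,3-linked galactose, was called by limma, and 1 of 5 had an unadjusted p under 0.05 in each mutant. B3galt5, which makes type 1 chains, was 5.59 ± 0.241 in controls, 5.35 ± 0.0995 in Yy1 mutants and 5.23 ± 0.112 in the Dicer mutants. The difference of -0.36 in Dicer mutants narrowly missed the threshold (adjusted p = 0.053) and passed it in 3 of the 20 alternatives that kept the gene. B3galt4, a ganglioside galactosyltransferase that makes GM1, was 5.91 ± 0.19, 6.17 ± 0.0579 and 5.95 ± 0.275, with 0.26 in Yy1 mutants (adjusted p = 0.281).

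B3gnt enzymes add N-acetylglucosamine to galactose and so extend chains. B3gnt5, which starts the lacto-series glycolipids, read 8.28, 8.15, 8.02 and 8.03 in controls, 7.82, 8.0, 7.87 and 8.07 in Yy1 mutants, and 7.38, 7.69, 7.65 and 7.59 in the Dicer mutants. The Dicer mutants lay below every other array, while Yy1 mutants overlapped controls. It fell by 0.54 in Dicer mutants (SE 0.0882, adjusted p = 0.00177), or 1.45-fold, and that call held in all 21 alternatives. The difference in Yy1 mutants was -0.18 (adjusted p = 0.292), and Yy1 mutants were higher than Dicer mutants by 0.36 (SE 0.0882, adjusted p = 0.0318). That last call failed on leaving out single arrays, with adjusted p of 0.0741 (Yy1 mutant 2), 0.0548 (Yy1 mutant 3), 0.1 (Yy1 mutant 4), 0.0815 (Dicer mutant 1), 0.0547 (Dicer mutant 3) and 0.0722 (Dicer mutant 4), and without the 3 arrays with raised Eif2s3y (0.237). With array medians made equal (0.0524) or the replicate number as a block (0.0594) it failed as well.

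B3gnt9 rose in both mutants. It read 7.23, 7.12, 7.04 and 7.12 in controls, 7.50, 7.83, 7.68 and 7.42 in Yy1 mutants, and 7.64, 7.86, 7.70 and 7.70 in the Dicer mutants. Every mutant array was above every control, and the mutants overlapped each other. The rise was 0.48 in Yy1 mutants (SE 0.0902, adjusted p = 0.00529) and 0.60 in the Dicer mutants (SE 0.0902, adjusted p = 0.00101), or 1.39-fold and 1.51-fold. In Yy1 mutants it was 0.33 without the 3 arrays with raised Eif2s3y and not called (adjusted p = 0.107), whereas the call in Dicer mutants held in all 21 alternatives.

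B3gnt7, which acts in keratan sulfate synthesis, was 6.44 ± 0.0674 in controls, 6.19 ± 0.124 in Yy1 mutants and 6.54 ± 0.156 in the Dicer mutants. It was called only between the mutants, at -0.34 (SE 0.0866, adjusted p = 0.0366). The other probe set of the gene differed by 0.15 there, in the opposite direction, and the mean of the probe sets gave -0.10 (adjusted p = 0.503). The call also failed on leaving out single arrays, with adjusted p of 0.0888 (Yy1 mutant 2), 0.0611 (Yy1 mutant 3), 0.107 (Yy1 mutant 4), 0.0952 (Dicer mutant 2), 0.111 (Dicer mutant 3), 0.0617 (Dicer mutant 4) and 0.053 (control 3), and without the 3 arrays with raised Eif2s3y (0.244). In a fit of the groups compared only (0.0703) or with the replicate number as a block (0.0586) it failed as well.

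No Gcnt gene was called by limma, and the count at an unadjusted p under 0.05 was 0 of 5 in each mutant and 1 between the mutants. Gcnt2, which makes the branched I antigen, was 6.38 ± 0.0972 in controls, 6.26 ± 0.241 in Yy1 mutants and 6.50 ± 0.0937 in the Dicer mutants. Its 3 probe sets disagreed, with differences in Yy1 mutants of -0.11, 0.36 and -0.06. Gcnt7 was 6.31 ± 0.109, 6.37 ± 0.0805 and 6.21 ± 0.104.

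Galnt enzymes, the largest of these families, start O-glycosylation. Galnt6 rose in both mutants. It read 5.79, 5.73, 5.80 and 5.98 in controls, 6.40, 6.51, 6.26 and 6.07 in Yy1 mutants, and 6.12, 6.45, 6.45 and 6.48 in the Dicer mutants. No mutant array reached down to the controls. The rise was 0.49 in Yy1 mutants (SE 0.106, adjusted p = 0.0132) and 0.55 in the Dicer mutants (SE 0.106, adjusted p = 0.0052). In Yy1 mutants it was 0.41 without the 3 arrays with raised Eif2s3y and not called (adjusted p = 0.153), whereas the call in Dicer mutants held in all 21 alternatives.

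Galnt18 was lower in Yy1 mutants than in either other group. It read 6.91, 7.07, 6.80 and 7.08 in controls, 6.48, 6.73, 6.67 and 6.55 in Yy1 mutants, and 7.12, 7.16, 7.22 and 7.02 in the Dicer mutants. Yy1 mutants lay below all other arrays, and Dicer mutants overlapped controls. Against control it fell by 0.36 (SE 0.0827, adjusted p = 0.0193), a call that failed on leaving out single arrays, with adjusted p of 0.0666 (Yy1 mutant 1), 0.0569 (Yy1 mutant 4), 0.0519 (control 2) and 0.0541 (control 4). Against Dicer mutants the difference was -0.52 (adjusted p = 0.00204), and it was called in all 21 alternatives. In Dicer mutants the difference from control was 0.16 (adjusted p = 0.264).

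Galnt7, which prefers peptides that already carry a sugar, read 7.74, 7.71, 7.59 and 7.52 in controls, 7.66, 7.55, 7.47 and 7.59 in Yy1 mutants, and 7.86, 7.96, 8.0 and 8.21 in the Dicer mutants. All Dicer mutants were above all other arrays. It rose by 0.37 in Dicer mutants (SE 0.0833, adjusted p = 0.0141), and Yy1 mutants were lower than Dicer mutants, at -0.44 (adjusted p = 0.00677). Without the 3 arrays with raised Eif2s3y these were 0.30 (adjusted p = 0.072) and -0.31 (adjusted p = 0.177).

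Galnt16 was 7.33 ± 0.111 in controls, 7.24 ± 0.0885 in Yy1 mutants and 7.60 ± 0.0661 in the Dicer mutants. It rose by 0.27 in Dicer mutants (SE 0.0728, adjusted p = 0.0326) and differed between the mutants by -0.36 (adjusted p = 0.0093). The call of the rise failed on leaving out single arrays, with adjusted p of 0.101 (Dicer mutant 2), 0.065 (Dicer mutant 3), 0.0798 (Dicer mutant 4), 0.102 (control 3) and 0.077 (control 4). That call also failed in a fit of the groups compared only (0.0594). Without the 3 arrays with raised Eif2s3y neither the rise nor the difference between the mutants was called (adjusted p = 0.126 and 0.142). The other 15 Galnt genes were called in no comparison. Among them, Galnt1 was 9.45 ± 0.0845, 9.62 ± 0.0678 and 9.57 ± 0.046, and Galnt2 was 8.85 ± 0.102, 8.78 ± 0.131 and 8.99 ± 0.077.

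**Figure D3:**
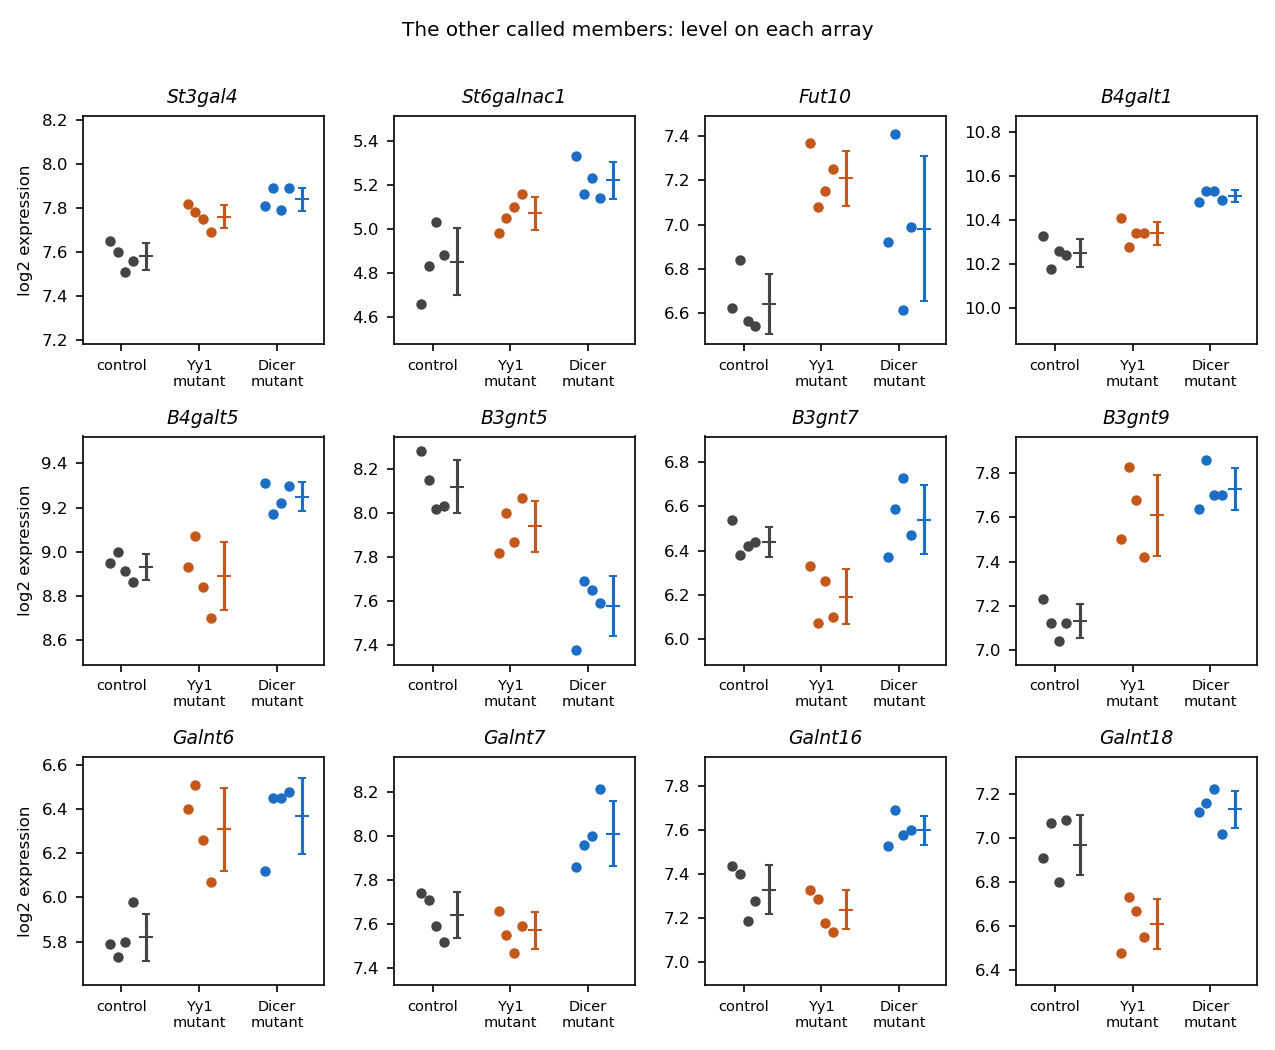
Log2 expression by genotype of the 12 called members outside the St8sia family, on each array. Dots are arrays and bars show the mean ± SD of 4 arrays. B3gnt9 and Galnt6 are higher on all mutant arrays than on any control, Galnt18 is lowest in Yy1 mutants, and B3gnt5 is lowest in Dicer mutants.

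Set side by side, the families differed little in their medians. In Yy1 mutants the family medians ran from -0.06 (St6gal) to 0.12 (St8sia), and in Dicer mutants from -0.04 (Fut and B3galt) to 0.14 (St3gal). Single genes within a family ranged more widely than the family medians, but medians of several genes vary less than single genes by construction. The St8sia genes in Yy1 mutants ranged from -0.33 to 1.72. The B3gnt median in Dicer mutants was -0.01 as deposited and 0.01 after quantile normalisation, so it has no direction.

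The genes that act with the members were taken from 7 lists, and 92 of the 104 listed symbols were measured. In Yy1 mutants 4 were called higher and 3 lower, beside 2.77% and 3.84% of all genes. In Dicer mutants 8 were called higher and 7 lower, beside 4.78% and 3.97% of all genes. The median difference was -0.01 and 0.00. Genes that make the fucose donor (6) and the galactose and hexosamine donors (9) gave no call by limma in any comparison, with at most 1 and 4 genes at an unadjusted p under 0.05. Of 7 genes of the sialic acid donor route, Cmas, which activates sialic acid to CMP-sialic acid, rose by 0.32 in Dicer mutants (adjusted p = 0.0211), a call that failed on leaving out a single array, with an adjusted p of 0.0621 (Dicer mutant 3) and without the 3 arrays with raised Eif2s3y (0.0714). In a fit of the groups compared only, the Cmas call failed as well (0.0554).

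Among 26 other chain-building enzymes, 3 were called in Yy1 mutants and 7 in the Dicer mutants, beside 6.61% and 8.75% of all genes. Ugcg, which makes glucosylceramide, the starting point of the glycolipids that St3gal5, St8sia1 and B4galt5 act on, rose from 8.14 ± 0.135 to 8.62 ± 0.127 in Yy1 mutants (adjusted p = 0.00851) and to 8.66 ± 0.158 in Dicer mutants (adjusted p = 0.00406). A4galt, the globotriaosylceramide synthase, fell by 0.76 in Dicer mutants (adjusted p = 0.000125). In Yy1 mutants A4galt fell by 0.35 (adjusted p = 0.0285), and the call failed on leaving out single arrays, with adjusted p of 0.061 (Yy1 mutant 2), 0.0612 (Yy1 mutant 4), 0.0513 (control 1), 0.0699 (control 2) and 0.0647 (control 4), and without the 3 arrays with raised Eif2s3y (0.183). The A4galt call in Yy1 mutants also failed in a fit of the groups compared only (0.054) and with the replicate number as a block (0.0562). Ugt8a, which makes galactosylceramide, fell by 1.02 in Dicer mutants (adjusted p = 9.12e-06). Galc, which breaks galactosylceramide down, rose by 0.48 in Dicer mutants (adjusted p = 0.014). C1galt1, which turns the product of the Galnt enzymes into core 1, rose from 8.16 ± 0.2 to 8.93 ± 0.135 in Dicer mutants (adjusted p = 0.00275) and was 7.99 ± 0.282 in Yy1 mutants. Lfng, which extends O-fucose on Notch, fell by 0.59 in Yy1 mutants (adjusted p = 0.00181) and by 0.39 in Dicer mutants (adjusted p = 0.0217). The Dicer call held in 15 of 21 alternatives. It failed on leaving out control 3 or Dicer mutant 1, 3 or 4, with adjusted p of 0.0513 to 0.0585. It was also lost in a fit of the groups compared only (0.0536) and without the 3 arrays with raised Eif2s3y (0.088). Between the mutants Lfng differed by -0.21 and was not called (adjusted p = 0.278).

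Of 10 sugar-removing enzymes 1 was called in Yy1 mutants and 2 in the Dicer mutants, all higher, beside 2.77% and 4.78% of all genes. Hexa, a lysosomal hexosaminidase subunit, rose by 0.43 in Yy1 mutants (adjusted p = 0.00258) and, without the 3 arrays with raised Eif2s3y, was at 0.41 (adjusted p = 0.0654). In Dicer mutants Hexa was higher by 0.28 (adjusted p = 0.0277), a call that failed on leaving out single arrays, with adjusted p of 0.0888 (Dicer mutant 2), 0.0564 (Dicer mutant 3), 0.0774 (Dicer mutant 4), 0.07 (control 1), 0.0818 (control 3) and 0.0621 (control 4), and was at 0.129 without the 3 arrays. The Hexa call in Dicer mutants also failed in a fit of the groups compared only (0.0727). Of 8 sulfotransferases none was called in Yy1 mutants by limma (1 at an unadjusted p under 0.05), where 6.61% of all genes were called. In Dicer mutants, where 8.75% of all genes were called, Chst2 was at -0.45 (adjusted p = 0.015) and Gal3st1, which sulfates galactosylceramide, at -0.34 (adjusted p = 0.0194). The Chst2 call failed on leaving out a single array, with an adjusted p of 0.0532 (Dicer mutant 4). The Gal3st1 call failed on leaving out single arrays, with adjusted p of 0.0588 (Dicer mutant 2), 0.0552 (Dicer mutant 3), 0.0644 (Dicer mutant 4), 0.0501 (control 3) and 0.0532 (control 4), and neither was called without the 3 arrays with raised Eif2s3y (Chst2 0.0929, Gal3st1 0.103). Of 26 acceptor proteins and lectins, 3 were called in each mutant, beside 6.61% and 8.75% of all genes. They included Ncam1 and Nrp2 in both, with Cd34, a sialomucin of vessels, lower by -0.35 in Yy1 mutants (adjusted p = 0.00573) and Cd33, a siglec of myeloid cells, higher by 0.30 in Dicer mutants (adjusted p = 0.0125, and 0.0536 without the 3 arrays).

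Between the mutants, 3 of the 92 genes were called higher in Yy1 mutants and 6 lower, beside 1.57% and 3.39% of all genes. C1galt1 differed by -0.94 (adjusted p = 0.000993), Galc by -0.75 (adjusted p = 0.00108) and Podxl, a sialomucin, by -0.68 (adjusted p = 0.0013). Ugt8a was higher in Yy1 mutants by 0.80 (adjusted p = 0.0001). Cd34 differed by -0.43 (adjusted p = 0.0019) and Cadm1, a cell adhesion molecule, by -0.42 (adjusted p = 0.0113). Against control, Cd34 differed by -0.35 in Yy1 mutants (adjusted p = 0.00573) and by 0.08 in Dicer mutants (adjusted p = 0.558). Of 8 endothelial markers, 6 were called lower in Yy1 mutants than in Dicer mutants, and their part in these differences was not tested. A4galt differed by 0.41 (adjusted p = 0.0144), which failed on leaving out Yy1 mutant 1 (0.0514), Yy1 mutant 3 (0.0517) or Dicer mutant 4 (0.0552). Glg1, a Golgi sialoglycoprotein, differed by -0.27 (adjusted p = 0.0152), which failed on leaving out Yy1 mutant 3 (0.0513) and was at -0.22 without the 3 arrays with raised Eif2s3y (adjusted p = 0.27). Chst2 differed by 0.43 (adjusted p = 0.0274), which failed on leaving out any 1 mutant array except Dicer mutant 1, with adjusted p of 0.0532 to 0.0869. Without the 3 arrays with raised Eif2s3y Chst2 differed by 0.38 (adjusted p = 0.294). In a fit of the groups compared only, it was not called either (0.057).

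**Figure D4:**
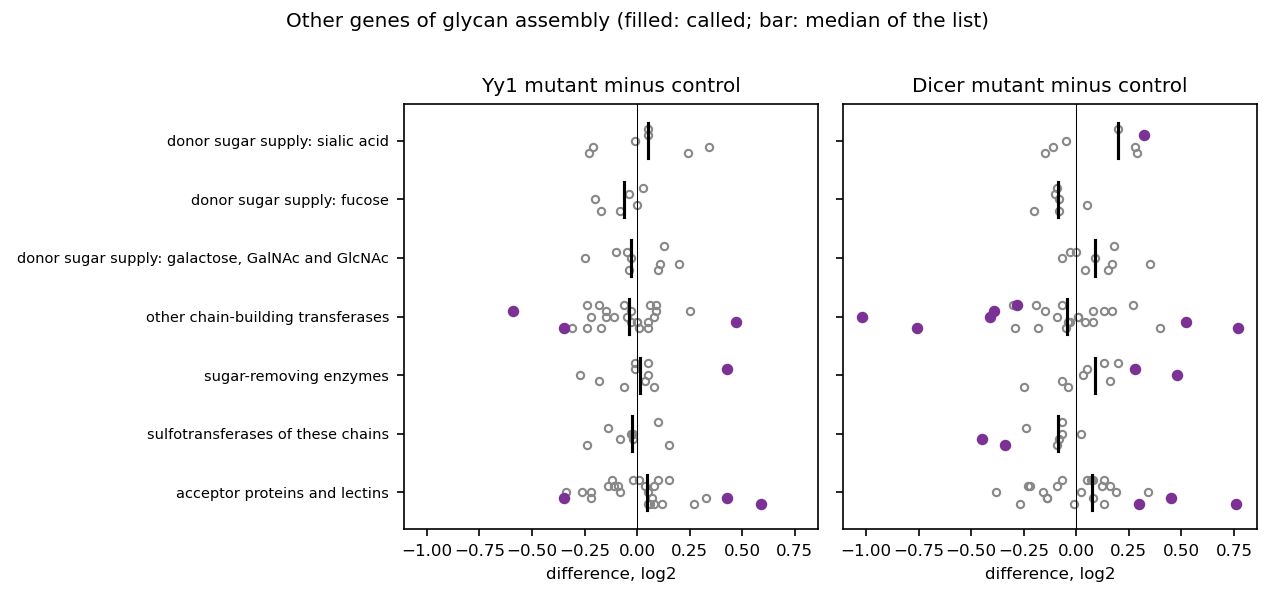
Difference from control on the log2 scale for 92 genes of 7 lists that supply, extend, remove or carry the sugars added by the members. Filled dots are called, open dots are not, and bars mark the median of a list. The donor lists hold a single called gene, Cmas, and the widest spread is among the other chain-building enzymes, where Ugt8a fell by 1.02 in Dicer mutants.

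Promoters were examined for the motif that Yy1 is known to bind. RefSeq windows from 250 bases before to 50 after the start were on hand for 53 of the 73 members, 11 of them called. CCATNTT, or AANATGG on the other strand, occurred in 5 of 53 members (9.43%) and in 18.2% of all 27025 genes with a window. It occurred in none of the 11 called members. The 5 members that hold it are shown, since they are all of the matches, 5′ to 3′ on the gene's strand with the motif in capitals. B4galt3 is at chr1:171270341-171270369 and Galnt5 at chr2:57998034-57998062, both on the plus strand. Fut8 is at chr12:77410016-77410044 and Gcnt4 at chr13:96924094-96924122, also on the plus strand, and St3gal6 is at chr16:58524305-58524333 on the minus strand.
B4galt3: cgcccgcttccAAGATGGctgcagcgata
Galnt5: gggctggaaggAAGATGGacatgagccct
Fut8: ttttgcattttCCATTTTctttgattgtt
Gcnt4: gtCCATTTTaAAGATGGaacagtaaagaa
St3gal6: ttgagccctttCCATGTTtggattggaaa
The match in B4galt3 begins 25 bases after the start, and those of Galnt5, Fut8 and St3gal6 110, 114 and 69 bases before it. Gcnt4 held a match on each strand, 248 and 240 bases before the start. B4galt3 was the member with the longer form GCCATNTT (1.89% of the 53 members, 6.96% of the 27025 genes with a window). None of the 5 genes was called, and B4galt3 read 8.58 ± 0.0832 in controls and 8.71 ± 0.122 in Yy1 mutants, with St3gal6 at 7.56 ± 0.125 and 7.65 ± 0.12. A match is a description of the letters, and its absence says only that these letters are not in this window. The GC box GGGCGG, or CCGCCC, occurred in 38 of 53 members (71.7%) and in 10 of the 11 called members with a window. It occurred in 38.2% of the 27025 genes with a window. Those 27025 include genes not measured here, so they are another background than the 22180 genes tested.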

How the data were processed

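Total RNA from whole lungs was labelled with biotin and hybridised to 12 Affymetrix arrays, per the labels' protocols. The authors deposited a table of 41345 probe sets on a log scale, taken here as log2 from its range of 1.1 to 13.58. The normalisation is not given in the sources used here. The values were used as deposited. Platform annotation gave 23521 probe sets exactly 1 symbol (22180 genes), 1814 several and 16010 none. A gene was read from the probe set that was brightest on average across the arrays. Of 80 member probe sets 73 were used, and 6 members had more than 1. The members and lists were chosen with earlier results of these data known.

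Genotypes were compared in a limma 3.58.1 fit (R 4.3.3) of all 12 arrays with 9 residual degrees of freedom, without a block, with Benjamini-Hochberg adjustment over all genes. The fit was tested on simulated data. Called members with a difference of at least 0.5 are given on all arrays. The other called members, and in families with fewer than 2 calls those of smallest p up to 2, are given by level and difference, and some further members are given array by array or for comparison, chosen after their values were seen. Up to 4 called genes per list and comparison are named. The 21 alternatives were scalings, a filter on the dimmest 30% of genes, averaged probe sets, another variance prior, array weights, fits of the groups compared only, a replicate block, and leaving out each array or the 3 with raised Y-linked genes. Sequences are from RefSeq's table (GRCm38.p6), with 73 of 73 members matched by identifier and 53 with a window. Python 3.11.15 with pandas 2.3.3 and matplotlib 3.10.9 did the rest.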

Additional observations from a re-analysis of the deposited data

Results flagged for a closer look

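In 3 of 117 groups of 4 arrays, a single array stood far from the others, where chance gives about 5% of groups. Galnt6 read 6.12 on Dicer mutant 1 and 6.45 to 6.48 on the other Dicer mutants. Gal3st1 read 6.55 on Dicer mutant 1 and 6.34 to 6.36 on the others. Glg1 read 9.92 on Dicer mutant 2 and 9.88 to 9.89 on the others.

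Several genes differed between the mutants when these were compared directly. Among the members the differences, Yy1 mutants minus Dicer mutants on the log2 scale, were 0.36 for B3gnt5, -0.34 for B3gnt7, -0.36 for B4galt5, -0.36 for Galnt16, -0.52 for Galnt18 and -0.44 for Galnt7. Of these, Galnt18 alone was called in all 21 alternatives. Among the genes that act with them, the differences were 0.41 for A4galt, -0.94 for C1galt1, -0.75 for Galc and 0.80 for Ugt8a. They were also -0.42 for Cadm1, -0.43 for Cd34, 0.43 for Chst2, -0.27 for Glg1 and -0.68 for Podxl.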

How the results depend on the processing

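Of 24 calls of members, 7 held in all 21 alternatives (St8sia6 in both mutants, St8sia2, B3gnt5, B3gnt9 and Galnt6 in Dicer mutants, and Galnt18 between the mutants), and 0 reversed. Members called numbered 7 in Yy1 mutants, 11 in Dicer mutants and 6 between the mutants. Leaving out each array in turn gave 3 to 8, 8 to 14 and 3 to 6. Dropping the 3 arrays on which Eif2s3y was raised gave 3, 5 and 1, with fewer arrays in both mutant groups. With the replicate number as a block (replicate block) they were 7, 11 and 4. Same-numbered arrays deviated together with correlations of -0.161 to 0.19. Whether the numbers pair the specimens cannot be told from such weak values in groups of 4 arrays. Every other alternative gave counts within 1.5 times of these. The 13 members at or below the 30th percentile of level, St8sia1 and St6galnac1 among the called, have the weakest signal.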
